A study of Mus musculus with 17 samples.

Results

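The genes described here are 10 early-response genes of 4 families, namely Egr1 and Egr2, Nr4a1, Nr4a2 and Nr4a3, Ier2 and Ier3, and Gadd45a, Gadd45b and Gadd45g. They are 10 of the 43430 gene rows counted in each library, found by symbol and Ensembl identifier. The set was selected on measured values: Egr1 and Gadd45g were lower, and Nr4a3 higher, after ISRIB in the poly(A) libraries of this series. The ISRIB values of all 10 genes are therefore given as a description, with no p-value. The rule used no value of the bleomycin libraries, and that comparison was tested. The members and gene lists were still chosen with earlier results of both experiments known, which limits what these tests can carry.

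RNA was sequenced from 17 libraries of alveolar type 2 (AT2) cells, the surfactant-producing epithelial cells of the lung, sorted from C57BL/6J mice aged 2 months. In the ISRIB experiment, 4 libraries came from mice given vehicle and 4 from mice given ISRIB, a small molecule that activates the translation factor eIF2B and so counters the integrated stress response. Both groups carry naive in their titles, and neither is labelled as given bleomycin. These cells were taken after 24 h, and their libraries were made from poly(A) RNA. In the bleomycin experiment, 4 libraries came from naive mice and 5 from mice at 14 days after bleomycin, a drug that injures the lung and is used as a model of fibrosis, and these libraries were made from total RNA. All 9 carry vehicle as their treatment label and saline in their titles, the naive ones included, so whether the naive mice were untreated or had received saline cannot be told from the labels. No allele or transgene is named for any group, and the labels used here give no dose. They also do not say whether the libraries of a group came from separate animals, so the p-values below measure only the spread between libraries.

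Immediate-early genes are transcribed within minutes of a stimulus from factors already present in the cell, and their short-lived mRNAs usually fall again soon after. EGR proteins are zinc-finger transcription factors switched on through serum response factor and its ERK-phosphorylated partners, while NR4A proteins are orphan nuclear receptors whose genes respond to cAMP and calcium through CREB. IER2 and IER3 are small immediate-early proteins, the latter known for modulating apoptosis and ERK signalling. GADD45 proteins have no DNA-binding or enzymatic domain and act by binding partners such as the kinase MAP3K4, PCNA, p21 and CDK1 in stress signalling and growth arrest.

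Depth was 10493574 to 15727139 counts in poly(A) libraries and 3295257 to 6333166 in total-RNA libraries, where ribosomal-RNA-like models took 20.8% to 31.9%. All 12 AT2 markers were tested in both experiments, and their summed level was 188156 to 199784 CPM (counts relative to the normalised size of the library) in the poly(A) libraries. In the total-RNA libraries it was 85636 to 93184 CPM in naive and 53696 to 93786 CPM in bleomycin libraries, lowest in bleomycin 1. After bleomycin Sftpd and Napsa were called higher and Etv5 and Nkx2-1 lower, 33.3% of the list beside 20.5% of all genes tested. Biological variation between libraries, as a common coefficient, was 7.66% for ISRIB and 21.1% for bleomycin. No pair of replicates was a duplicate. Because kit, RNA input and depth differed, no level is compared between the experiments.

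Among uninjured cells the 10 genes spanned a wide range of levels per kilobase of exon (CPM per kb). In vehicle libraries Gadd45g (39.5) and Ier2 (34.2) were highest and overlapped in their ranges. Gadd45a (17.8) and Gadd45b (15.1) came next and also overlapped, followed by Ier3 (8.39), Nr4a1 (7.10) and Egr1 (6.30), whose neighbours in that order overlapped too. Nr4a2 stood at 1.03, and the lowest pair, Nr4a3 (0.16) and Egr2 (0.10), overlapped. In naive total-RNA libraries Ier2 led with 40.7 CPM per kb and Gadd45g followed with 21.4. From Gadd45a (10.8) through Egr1 (9.03) and Gadd45b (8.06) to Nr4a1 (7.38) each gene overlapped the next in that experiment. Below them came Ier3 (4.12), Nr4a2 (0.89), Nr4a3 (0.29) and Egr2 (0.091). After bleomycin Gadd45g (35.4) stood above Ier2 (19.9), the reverse of their order in naive cells.

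At 14 days after bleomycin, AT2 cells held less Ier2 mRNA and more Gadd45g and Ier3 mRNA than naive cells. Nr4a3 was also past the threshold, but it entered the test through the bleomycin libraries, where it was high. Egr1, Nr4a1, Nr4a2, Gadd45a and Gadd45b did not pass the test. The threshold was an adjusted p of 0.05 in the quasi-likelihood test of edgeR, with Benjamini-Hochberg adjustment over all 11223 genes tested. By this rule 4 of the 9 members tested were called, 3 higher and 1 lower, beside 20.5% of all genes tested (11.2% higher and 9.31% lower). For 3 of the 9 the groups did not overlap, beside 19.7% of all genes tested. The tenth member, Egr2, was too low to test. Of the 4 libraries above the count filter that a gene needed, the naive group alone gave 1 for Nr4a3, so this gene was tested because it was high after bleomycin, and the counts of members are a description and not support. In bulk libraries such as these, fewer cells of a type and less RNA per cell cannot be told apart.

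**Figure D1:**
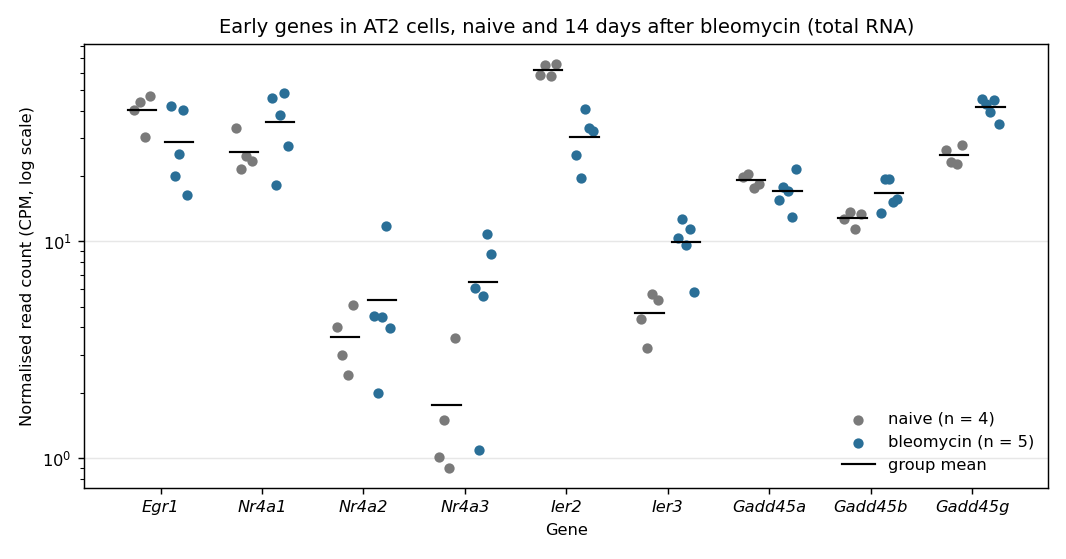
CPM, on a logarithmic axis, of the 9 tested members in the 4 naive and 5 bleomycin total-RNA libraries, with points for libraries and lines for group means. Ier2 lies lower in every bleomycin library (19.7 to 40.7 CPM) than in any naive library (57.9 to 65.9 CPM), whereas Gadd45g and Ier3 lie higher without overlap.

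Egr1 (chromosome 18, bases 34859823 to 34864984, GRCm38) encodes a transcription factor of growth-factor and injury signalling. Its levels were 40.3, 44.2, 30.3 and 47.1 CPM in naive 1 to 4, and 42.3, 20.03, 25.4, 40.5 and 16.3 CPM in bleomycin 1 to 5. Bleomycin 1 and 4 lay inside the naive range and the other 3 below it, so that the groups overlapped. The mean was 40.5 ± 7.32 CPM (SD, n = 4) in naive and 28.9 ± 11.9 CPM (SD, n = 5) in bleomycin libraries. The log2 fold change of -0.51 (SE 0.24) did not pass the edgeR test (adjusted p = 0.145). Without bleomycin 1 it was -0.69 with an adjusted p of 0.0411, and without the filter on low counts it was -0.50 with an adjusted p of 0.0485, both past the threshold.

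Egr2 (chromosome 10, bases 67535475 to 67542188), a relative known from myelination and lymphocyte control, gave 5 counts in the naive group and 7 in the bleomycin group. Of its family relatives outside the set, Egr3 gave 3 and 7 counts and Egr4 1 and 2 counts in the same groups. Egr1 was thus the one EGR gene with enough counts to test in either experiment.

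Nr4a1 (chromosome 15, bases 101254269 to 101274795), also called Nur77, was the most abundant NR4A receptor per kilobase in every group. Its levels were 33.5, 21.6, 24.9 and 23.5 CPM in naive 1 to 4 and 45.8, 18.2, 38.4, 48.6 and 27.6 CPM in bleomycin 1 to 5. Bleomycin 1, 3 and 4 lay above all naive libraries, and bleomycin 2 below them. The log2 fold change was 0.46 (SE 0.24), with an adjusted p of 0.196 by edgeR, and leaving out bleomycin 2 gave 0.63 with an adjusted p of 0.0316.

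Nr4a2 (chromosome 2, bases 57106830 to 57124003), known for its role in dopaminergic neurons, was lower. It had 4.03, 2.99, 2.40 and 5.07 CPM in naive 1 to 4 and 4.50, 1.99, 4.49, 11.8 and 3.96 CPM in bleomycin 1 to 5. The groups overlapped, and bleomycin 4 stood above every other library. The log2 fold change of 0.52 (SE 0.49, edgeR adjusted p = 0.491) was 0.052 without bleomycin 4, with an adjusted p of 0.950.

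Nr4a3 (chromosome 4, bases 48045153 to 48086447), also called NOR-1, had the lowest group mean per kilobase of the 3 receptors in all 4 groups. Naive 1 to 4 had 1.01, 1.496, 0.90 and 3.58 CPM, and bleomycin 1 to 5 had 6.08, 1.08, 5.57, 10.8 and 8.71 CPM. Thus 4 of the 5 bleomycin libraries lay above all naive libraries, and bleomycin 2 lay among them. The mean was 1.74 ± 1.25 CPM (SD, n = 4) in naive and 6.46 ± 3.67 CPM (SD, n = 5) in bleomycin libraries, a log2 fold change of 1.85 (SE 0.60). Its edgeR adjusted p of 0.0326 comes after the filter that it passed through the bleomycin libraries. Without any filter edgeR gave 1.87 with an adjusted p of 0.00478. After the filter, the call was lost without naive 1 (1.68, adjusted p = 0.0983), naive 2 (1.77, adjusted p = 0.0919), naive 3 (1.65, adjusted p = 0.102), bleomycin 4 (1.61, adjusted p = 0.0620) or bleomycin 5 (1.71, adjusted p = 0.0685). It was also lost with limma-voom, which gave 1.56 with an adjusted p of 0.226. With edgeR and the replicate number as a block the value was 1.58 with an adjusted p of 0.0677.

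The promoters of the 3 NR4A genes are shown because these receptors are known cAMP-response genes and Nr4a3 was past the threshold after bleomycin. The sequences are the 250 bases before the RefSeq start (GRCm38.p6), written 5′ to 3′ on the gene's strand, with capitals marking TGACG, the core letters of the cAMP response element, on either strand (CGTCA), and TATAAA on either strand (TTTATA). Promoters of 8 of the 10 members were searched. Those of Egr1 and Ier2 were not, which does not show that RefSeq lacks an entry for them, and nothing is read about their letters.
Nr4a1, chr15:101266596-101266845, plus strand: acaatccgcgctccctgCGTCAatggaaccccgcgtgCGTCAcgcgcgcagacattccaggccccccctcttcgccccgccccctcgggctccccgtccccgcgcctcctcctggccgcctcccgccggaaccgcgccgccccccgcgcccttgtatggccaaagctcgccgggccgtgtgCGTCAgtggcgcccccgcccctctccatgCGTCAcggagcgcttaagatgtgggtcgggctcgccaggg
Nr4a2, chr2:57124004-57124253, minus strand: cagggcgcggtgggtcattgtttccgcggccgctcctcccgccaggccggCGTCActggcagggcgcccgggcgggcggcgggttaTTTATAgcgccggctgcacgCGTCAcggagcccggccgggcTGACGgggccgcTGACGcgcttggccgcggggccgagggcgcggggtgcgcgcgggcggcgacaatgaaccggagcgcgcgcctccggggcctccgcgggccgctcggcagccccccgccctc
Nr4a3, chr4:48045055-48045304, plus strand: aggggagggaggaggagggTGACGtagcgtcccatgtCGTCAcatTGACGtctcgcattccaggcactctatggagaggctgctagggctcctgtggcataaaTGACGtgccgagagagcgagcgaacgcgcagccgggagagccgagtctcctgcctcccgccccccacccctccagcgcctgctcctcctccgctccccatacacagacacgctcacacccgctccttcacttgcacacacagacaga
Each of the 3 held 4 matches to TGACG. At least 1 match was present in 5836 of 32851 RefSeq promoters of the same length (17.8%), and 4 or more in 45 of them (0.137%). That count of matches was taken after these promoters had been searched. The letters G and C made up 74.4%, 80.0% and 63.6% of the Nr4a1, Nr4a2 and Nr4a3 promoters. The median over all promoters was 52.4%, so these shares do not compare promoters of like composition. The full palindrome TGACGTCA was in none of the members' promoters that were searched and in 1.55% of all. The letters were not confined to the NR4A genes, since 3 of the 5 promoter entries of Egr2, whose windows overlap, held the same 2 matches. The promoters of Ier3, Gadd45a, Gadd45b and Gadd45g held no TGACG in this window. These matches describe letters only, and the genes that share them did not share a direction that passed the test: of the 3 receptors only Nr4a3 was past the threshold after bleomycin.

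Ier2 (chromosome 8, bases 84661331 to 84662852) encodes a small nuclear protein of the early growth-factor response. It had 58.7, 65.4, 57.9 and 65.9 CPM in naive 1 to 4 and 25.1, 19.7, 40.7, 33.4 and 32.3 CPM in bleomycin 1 to 5. Every bleomycin library lay below every naive library. The mean went from 62.0 ± 4.23 CPM (SD, n = 4) to 30.2 ± 8.10 CPM (SD, n = 5), and Ier2 fell by 1.03 on the log2 scale (SE 0.17, adjusted p = 3.88e-04 by edgeR).

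Ier3 (chromosome 17, bases 35821684 to 35822923), also called IEX-1, moved in the opposite direction. Its levels were 4.36, 3.20, 5.70 and 5.36 CPM in naive 1 to 4 and 10.3, 12.6, 9.60, 11.4 and 5.86 CPM in bleomycin 1 to 5. All 5 bleomycin libraries lay above the naive ones, bleomycin 5 by a small margin. The mean rose from 4.66 ± 1.12 CPM (SD, n = 4) to 9.97 ± 2.57 CPM (SD, n = 5), a log2 fold change of 1.10 (SE 0.32) with an adjusted p of 0.0212 by edgeR. The call was lost with limma-voom (1.06, adjusted p = 0.0575) and without naive 1 (1.07, adjusted p = 0.0584), naive 2 (0.94, adjusted p = 0.0808) or bleomycin 2 (1.00, adjusted p = 0.0530). The relative Ier5 rose as well, from 11.8 ± 3.92 CPM (SD, n = 4) to 22.8 ± 5.82 CPM (SD, n = 5), with a log2 fold change of 0.96 (SE 0.25, edgeR adjusted p = 0.0104), and 4 of 5 bleomycin libraries lay above all naive ones. Ier5l, with 30 and 55 counts in the groups, was too low to test.

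Gadd45g (chromosome 13, bases 51846678 to 51848468), also called CR6, had 26.5, 23.3, 22.8 and 28.0 CPM in naive 1 to 4. Bleomycin 1 to 5 had 45.2, 43.3, 39.5, 44.9 and 34.8 CPM. The groups did not overlap. The mean rose from 25.2 ± 2.51 CPM (SD, n = 4) to 41.5 ± 4.38 CPM (SD, n = 5), a log2 fold change of 0.72 (SE 0.15) with an adjusted p of 0.00221 by edgeR. Over all alternatives run, its log2 fold change stayed between 0.68 and 0.79, with adjusted p-values from 2.08e-04 to 0.0125.

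Gadd45g was the one member called higher after bleomycin under every alternative run. It was also lower without overlap after ISRIB, a value the set was selected on. For these reasons its promoter is shown. It is the 250 bases before the RefSeq start (GRCm38.p6), 5′ to 3′, with capitals marking a match to TGATGNAA, the letters of the C/EBP-ATF response element, read on the other strand (TTGCATCA), and a match to TATAAA.
Gadd45g, chr13:51846425-51846674, plus strand: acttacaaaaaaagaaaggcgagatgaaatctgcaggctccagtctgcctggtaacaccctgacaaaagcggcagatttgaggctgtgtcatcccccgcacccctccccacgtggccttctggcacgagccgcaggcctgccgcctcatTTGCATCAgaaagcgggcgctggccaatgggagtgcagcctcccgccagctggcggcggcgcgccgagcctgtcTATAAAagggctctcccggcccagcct
The first match lies 101 to 94 bases before the start, and its letters occur on either strand in 3.45% of all promoters of this length. TATAAA lies 27 to 22 bases before the start and occurs in 12.4% of all promoters. The match to TGATGNAA was picked after several sets of letters had been searched in the members' promoters. Whether any factor binds at either match was not measured.

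Gadd45a (chromosome 6, bases 67035096 to 67037457), a p53 target, had 19.8, 20.5, 17.7 and 18.5 CPM in naive 1 to 4 and 15.6, 17.9, 17.0, 12.99 and 21.7 CPM in bleomycin 1 to 5. The groups overlapped, with a log2 fold change of -0.16 (SE 0.19, edgeR adjusted p = 0.617). Its exons overlap those of the opposite-strand model E230016M11Rik by 337 bases, and no source used here says whether the counting was strand-specific, so its values are less certain. Gadd45b (chromosome 10, bases 80930073 to 80932204), a gene induced by NF-kappaB and TGF-beta, had 12.8 ± 1.01 CPM (SD, n = 4) in naive and 16.7 ± 2.71 CPM (SD, n = 5) in bleomycin libraries. Its log2 fold change of 0.38 (SE 0.20) did not pass the edgeR test (adjusted p = 0.200).

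The composition of the GADD45 family was also compared, as the share that each gene took of the summed reads per kb of all 3, a measure that does not depend on library size. The share of Gadd45g was 53.1% ± 2.64 (SD, n = 4) in naive and 63.7% ± 5.32 (SD, n = 5) in bleomycin libraries, 10.6 percentage points higher and without overlap. Gadd45a took 26.9% ± 1.88 (SD, n = 4) and 17.5% ± 3.83 (SD, n = 5), a difference of -9.45 points, also without overlap. For both, the exact two-sided permutation test gave p = 0.0159, or 0.0476 after Benjamini-Hochberg adjustment over the 6 shares compared, where 0.00794 is the smallest p this design allows. With 1 library left out the design was too small for these shares to pass (adjusted exact p from 0.0857), which says nothing of their stability. The difference then ranged from 9.17 to 12.2 points for Gadd45g and from -11.0 to -8.42 points for Gadd45a. Gadd45b held 19.99% and 18.9% (exact permutation p = 0.468, adjusted 0.562). The 3 shares are parts of 1 whole, so a higher share of Gadd45g lowers the others. The results for Gadd45g and Gadd45a are therefore not independent. The level of Gadd45a itself did not pass the edgeR test (log2 fold change -0.16, adjusted p = 0.617).

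**Figure D2:**
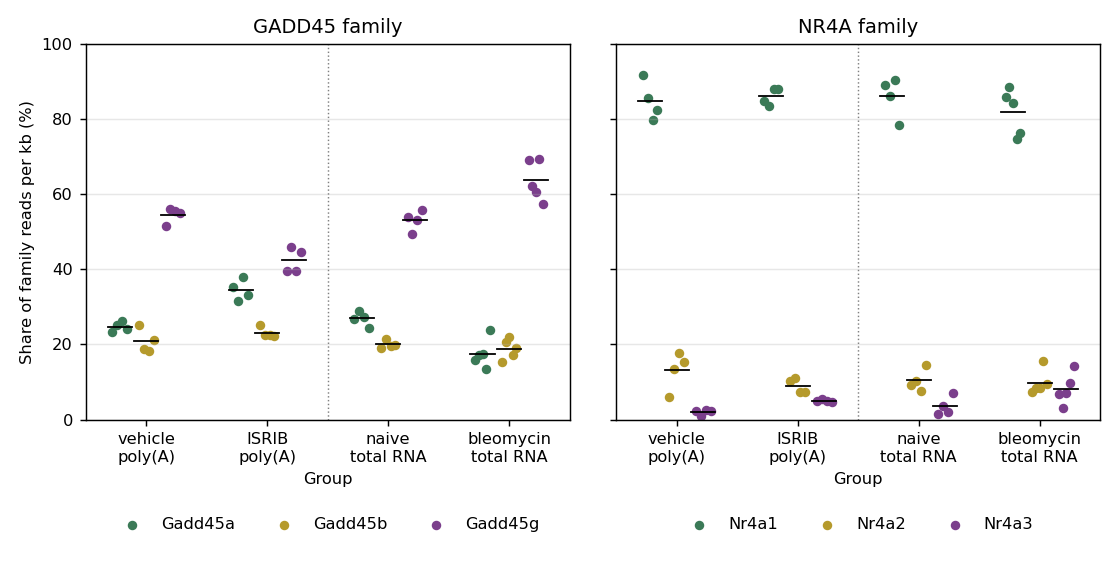
Share (%) that each GADD45 and each NR4A gene takes of its family's reads per kb in every library, with points for libraries and lines for group means. The mean share of Gadd45g is 54.5% in vehicle, 42.4% in ISRIB, 53.1% in naive and 63.7% in bleomycin libraries, and Nr4a1 makes up most of the NR4A reads in all 4 groups.

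Within the NR4A family, Nr4a1 took 86.1% of the reads per kb in naive and 82.0% in bleomycin libraries (exact permutation p = 0.302, adjusted 0.452). Nr4a3 took 3.49% ± 2.47 (SD, n = 4) and 8.17% ± 4.10 (SD, n = 5), with an exact permutation p of 0.0794 (adjusted 0.159). Nr4a2 took 10.4% and 9.85% (exact permutation p = 0.722). No NR4A share passed the threshold.

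At 24 h after ISRIB, the 3 genes the set was selected on differed between the groups by that choice, and no test is read from them. Of the 9 members above the count filter, these 3 had groups that did not overlap, 1 higher and 2 lower. Over all 12054 genes tested, 2.2% were past the edgeR threshold (1.1% higher and 1.1% lower) and 8.65% had groups that did not overlap. Nothing is read from the members' count, which is the selection itself. As after bleomycin, Egr2 was too low to test, and Nr4a3 passed the filter through the treated libraries, with 2 of the 4 libraries needed coming from the vehicle group.

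**Figure D3:**
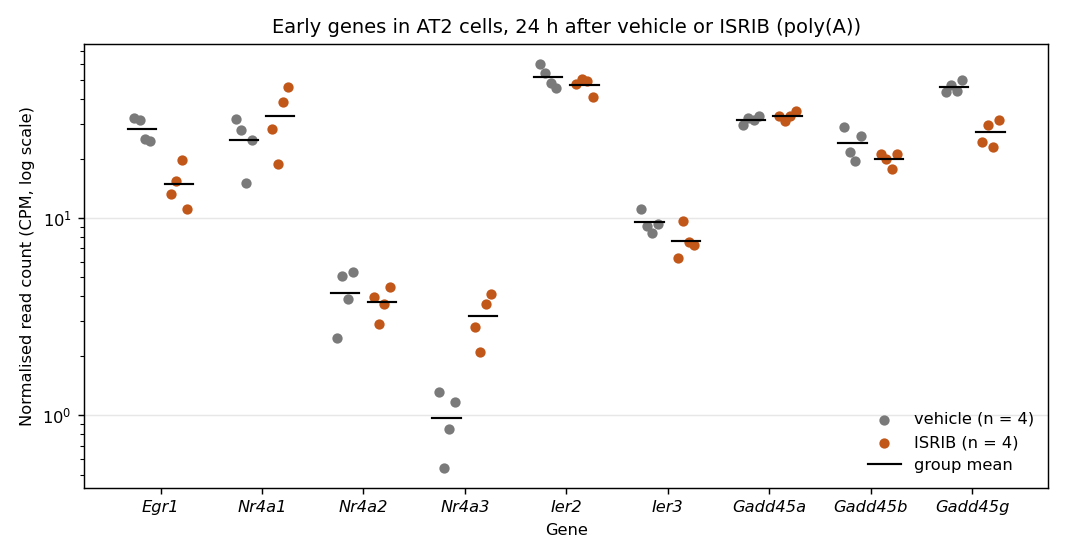
CPM, on a logarithmic axis, of the 9 tested members in the 4 vehicle and 4 ISRIB poly(A) libraries, with points for libraries and lines for group means. Egr1 and Gadd45g lie lower and Nr4a3 higher in all 4 ISRIB libraries than in any vehicle library, and these are the values by which the set was chosen.

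Egr1 had 32.0, 31.4, 25.0 and 24.5 CPM in vehicle 1 to 4 and 13.3, 15.3, 19.8 and 11.1 CPM in ISRIB 1 to 4, with a log2 fold change of -0.93 (SE 0.14). All ISRIB libraries were below all vehicle libraries, and ISRIB 3 came nearest to them. Egr2 gave 15 counts over the vehicle and 5 over the ISRIB libraries, with 0 counts in 1 vehicle and 2 ISRIB libraries. Egr3 gave 1 and 2 counts. Egr4 had 0 of 98885300 counts over the 8 poly(A) libraries, which allows up to 0.0303 CPM (3 counts, for counting error only).

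Nr4a3 had 1.32, 0.54, 0.85 and 1.16 CPM in vehicle 1 to 4 and 2.81, 2.08, 3.67 and 4.12 CPM in ISRIB 1 to 4. The groups were separate, and the log2 fold change was 1.70 (SE 0.31). Nr4a1 had 31.8, 28.0, 15.1 and 24.7 CPM under vehicle and 28.2, 18.7, 38.7 and 46.1 CPM under ISRIB. Its groups overlapped, with ISRIB 3 and 4 above and ISRIB 1 and 2 within the vehicle range, and the log2 fold change was 0.41 (SE 0.23). Nr4a2 had 4.18 ± 1.32 and 3.75 ± 0.66 CPM (SD, n = 4 each) and a log2 fold change of -0.15 (SE 0.23). Nr4a3 took 2.03% ± 0.73 of the family's reads per kb under vehicle and 4.97% ± 0.34 under ISRIB (SD, n = 4 each), while Nr4a1 took 84.8% and 86.0%.

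Ier2 had 52.0 ± 6.60 CPM under vehicle and 47.2 ± 4.36 CPM under ISRIB (SD, n = 4 each), with a log2 fold change of -0.14 (SE 0.09). Ier3 had 9.49 ± 1.16 and 7.67 ± 1.41 CPM and a log2 fold change of -0.31 (SE 0.15). The groups of both genes overlapped. Of the relatives, Ier5 did not pass the edgeR test after ISRIB (log2 fold change -0.14, adjusted p = 0.552), nor did Ier5l (0.44, adjusted p = 0.431).

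Gadd45g had 43.7, 47.3, 43.9 and 50.3 CPM in vehicle 1 to 4 and 24.4, 29.7, 23.0 and 31.3 CPM in ISRIB 1 to 4. The groups were well separated, and the log2 fold change was -0.77 (SE 0.09). Gadd45a, at 31.4 ± 1.44 and 32.9 ± 1.70 CPM (SD, n = 4 each), had a log2 fold change of 0.07 (SE 0.07), with overlapping groups. Gadd45b, at 24.0 ± 4.26 and 19.9 ± 1.62 CPM, had -0.26 (SE 0.11), again with overlap. As a share of the family's reads per kb, Gadd45g made up 54.5% ± 2.00 under vehicle and 42.4% ± 3.32 under ISRIB, and Gadd45a 24.6% ± 1.34 and 34.5% ± 2.72 (SD, n = 4 each), both without overlap. Gadd45b took 20.9% and 23.1%.

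**Figure D4:**
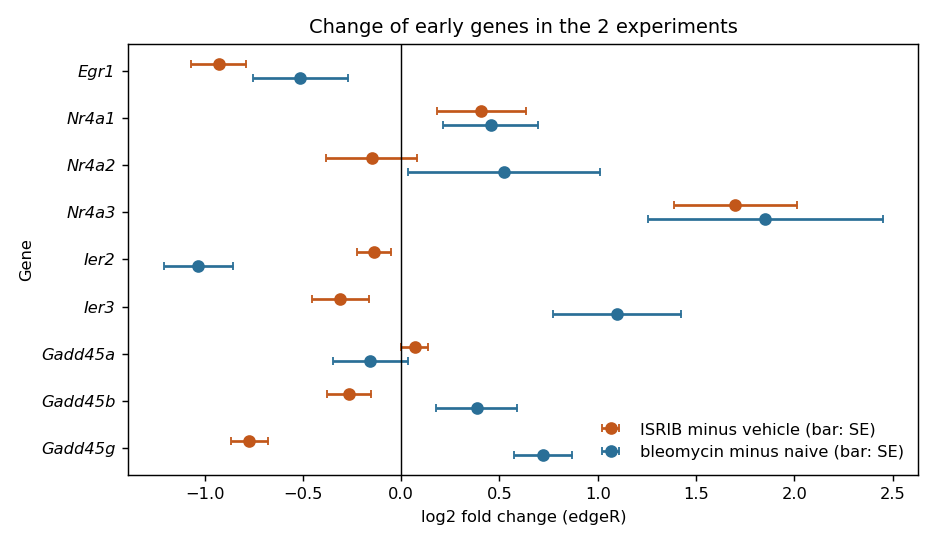
Log2 fold changes of the 9 tested members in the ISRIB and bleomycin experiments, with bars of 1 SE; the ISRIB values are those the set was selected on. Gadd45g stands at -0.77 after ISRIB and 0.72 after bleomycin, whereas Nr4a3 is above 0 in both (1.70 and 1.85).

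The experiments had separate controls and kits, and no test of the difference between them was made. Side by side, Gadd45g had log2 fold changes of -0.77 after ISRIB and 0.72 after bleomycin, Nr4a3 had 1.70 and 1.85, and Egr1 had -0.93 and -0.51. For Ier2 the values were -0.14 and -1.03, and for Ier3 they were -0.31 and 1.10.

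Among upstream factors of these genes, 1 passed the test in each experiment, or 8.33% of the list, beside 2.2% of all genes after ISRIB and 20.5% after bleomycin. Of 12 listed genes of the SRF and CREB systems, all 12 tested in both experiments, Srf itself was called after ISRIB, from 51.5 to 64.4 CPM (log2 fold change 0.32, SE 0.06, edgeR adjusted p = 0.0147). After bleomycin 1 of the 12 was called, Crtc1, a CREB coactivator (-0.74, edgeR adjusted p = 0.0316). The medians of the list were 0.09 and -0.09, beside medians of 0.00 for all genes tested in each experiment. Of the NAB corepressors that bind EGR proteins and the RXR partners of NR4A receptors, 4 of 5 were tested in each experiment. In this list edgeR called 0 genes in either, as did DESeq2 and limma-voom, while 1 gene after ISRIB and 0 after bleomycin had an unadjusted p under 0.05.

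Among 17 partners of the GADD45 proteins, 14 were tested after bleomycin, of which 3 were called higher and 1 lower by edgeR. This was 28.6% of those tested, beside 20.5% of all genes tested, with a median log2 fold change of 0.08. Cdkn1a, which encodes the CDK inhibitor p21, rose from 16.7 to 82.0 CPM (log2 fold change 2.29, adjusted p = 9.95e-07). Mapk13, a p38 kinase, rose by 0.91 (adjusted p = 0.00649), while Mapk9, a JNK, fell by 0.46 (adjusted p = 0.0468). The third gene called higher, Cdk1, the mitotic kinase, had 1.30 CPM in naive and 8.55 CPM in bleomycin libraries, and it entered the test through the bleomycin libraries alone. After ISRIB 16 were tested and edgeR called 0, beside 2.2% of all genes tested. DESeq2 and limma-voom also called 0, with 1 gene at an unadjusted edgeR p under 0.05 and a median of -0.01.

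Of 40 other immediate-early and early-response genes, 34 were tested after bleomycin, and 5 were called higher and 6 lower by edgeR. This was 32.4% of those tested, beside 20.5% of all genes tested, with a median log2 fold change of -0.15. Ccn1, which encodes a secreted matricellular protein, rose by 2.90 (edgeR adjusted p = 4.82e-06), as did Id1 by 1.61 (adjusted p = 0.00151). Its relative Ccn2, at 0.54 CPM in naive and 10.3 CPM in bleomycin libraries, was called higher too but entered the test through the bleomycin libraries alone. The MAP kinase phosphatase gene Dusp1 fell from 125 to 54.3 CPM (edgeR adjusted p = 4.82e-06). Fos fell from 82.5 to 43.0 CPM (edgeR adjusted p = 3.81e-04) and Jun by 0.86 on the log2 scale (edgeR adjusted p = 2.86e-04). Dusp1, Fos and Jun shared the direction of Ier2. After ISRIB 36 were tested, and 2 were called in each direction, Jun (0.40) and Per1 (0.44) higher and Junb (-0.47) and Id2 (-0.57) lower. This was 11.1% of those tested, beside 2.2% of all genes tested, with a median of 0.06.

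Of the full lists of markers of other cell types, the sums of fibroblast and AT1 markers did not overlap between naive and bleomycin libraries. The sums for macrophages (with Lyz2), neutrophils, lymphocytes, endothelium and airway cells overlapped. Of 12 fibroblast markers 5 were tested and 4 were called higher (Col1a1, Col1a2, Col3a1 and Fn1), and their summed level was 8.05 to 18.4 CPM in naive and 40.1 to 297 CPM in bleomycin libraries, highest in bleomycin 2. DESeq2 called 3 of them and limma-voom 1. To be tested a gene needed 4 libraries above 2.57 CPM, and in naive 4 the 12 markers together gave 8.05 CPM. Some of the 5 therefore entered the test through the bleomycin libraries, where they were high. The share of fibroblast markers called is a description and not support. Lum was at 0 in all 9. Bleomycin 2 was the library with the highest fibroblast sum and the lowest Nr4a1, Nr4a2 and Nr4a3 of its group. It also had the highest Ier3 (12.6 CPM) and the lowest Ier2 (19.7 CPM) of that group. Its Gadd45g (43.3 CPM) lay inside the range of the other bleomycin libraries. Of 10 AT1 markers 8 were called higher, 80% of those tested as for fibroblasts, beside 20.5% of all genes tested. The AT1 sums were 1592 to 1823 CPM in naive and 2359 to 3029 CPM in bleomycin libraries. Of 18 macrophage and monocyte markers 4 were tested and 1 was higher (Cd14), with Marco and C1qa at 0. Their sum was 10802 to 12760 CPM in naive and 4675 to 13480.5 CPM in bleomycin libraries. Without Lyz2, which AT2 cells also express, it was 17.5 to 31.2 CPM in naive and 42.3 to 74.0 CPM in bleomycin libraries, and the groups did not overlap. That second sum was chosen after its values were seen. Endothelial sums were 23.8 to 36.8 and 30.4 to 92.6 CPM, with 2 of 6 tested called higher, and airway sums 489 to 967 and 573 to 1032 CPM, with 2 of 8 called higher. Neutrophil sums were 1.34 to 1.71 and 0.53 to 8.30 CPM. Lymphocyte sums were 2.98 to 8.76 and 1.32 to 9.59 CPM, with 1 marker tested and 0 called. The part of these cells in the values of Ier3, Nr4a3 and Gadd45g was not tested. Without bleomycin 2, Ier3 was no longer called (1.00, edgeR adjusted p = 0.0530), while Gadd45g gave 0.71 (adjusted p = 0.00406) and Ier2 -0.90 (adjusted p = 3.53e-04). Nr4a3 gave 2.13 (edgeR adjusted p = 0.00405), but it entered the test through the bleomycin libraries. The library left out was also its lowest of that group, so nothing is read from this p.

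**Figure D5:**
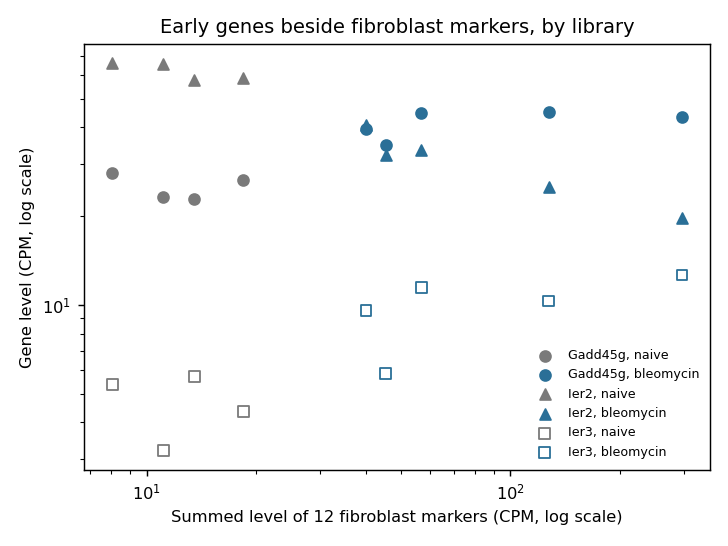
Summed CPM of 12 fibroblast markers in each total-RNA library against the CPM of Gadd45g, Ier2 and Ier3, the members whose naive and bleomycin groups did not overlap, on logarithmic axes. The naive libraries lie at 8.05 to 18.4 CPM and the bleomycin libraries at 40.1 to 297 CPM of fibroblast markers.

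In the ISRIB experiment the summed markers overlapped between groups for fibroblasts (22.2 to 32.4 CPM under vehicle and 18.1 to 29.2 under ISRIB), endothelium (57.5 to 77.3 and 62.1 to 73.8) and airway cells (3941 to 4377 and 2448 to 4282). The lymphocyte sum was 18.6 to 20.98 and 15.8 to 17.4 CPM and did not overlap. It was nearly all Cd79b (19.9 and 16.5 CPM), with 9 of 12 lymphocyte markers at 0. Of 18 macrophage and monocyte markers 5 were tested, and Chil3 was called lower (1.24 and 0.35 CPM, log2 fold change -1.84, edgeR adjusted p = 0.0440), with C1qa, C1qc and Fcgr1 at 0. Their sum without Lyz2 was 74.8 to 95.9 CPM under vehicle and 78.0 to 92.3 CPM under ISRIB. The airway marker Tppp3 was called lower as well (86.6 and 64.3 CPM, log2 fold change -0.43, edgeR adjusted p = 0.00384). Etv5 was the 1 AT2 marker called lower, 8.33% of the list, beside 2.2% of all genes tested. The part of these shifts in the ISRIB values of the members was not tested.

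Variation of the members between libraries of 1 group was examined with group means removed, over 36 pairs of 9 members in each experiment, 72 pairs in all. By Pearson's r, 0 pairs passed the permutation test after Benjamini-Hochberg adjustment (lowest adjusted p 0.260 in the 8 poly(A) and 0.464 in the 9 total-RNA libraries), and 3 and 2 pairs had an unadjusted p under 0.05. By Spearman's rho 0 pairs passed as well. The median r was -0.0084 and 0.056.

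For the 3 genes the set was selected on, the genes most alike were those with the highest Pearson r of group-centred log2 CPM over all 17 libraries. They were picked for their r, and the libraries of a group share a kit and processing, so no p is given. For Egr1 they were Amer1 (0.85), Dnajb6 (0.84) and Plekha7 (0.84) among 8796 genes, and their r in the poly(A) and total-RNA libraries was 0.47 and 0.96 for Amer1, 0.87 and 0.86 for Dnajb6 and 0.71 and 0.89 for Plekha7. For Gadd45g they were H2-Q4 (0.86), Col6a1 (0.83) and Syngr2 (0.82), with r of at least 0.77 in either kit. For Nr4a3 they were Cyp4f17 (0.87), Slc35a2 (0.87) and Oser1 (0.86) among 10285 genes, each at 0.40 to 0.44 in the poly(A) and 0.91 to 0.94 in the total-RNA libraries.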

How the data were processed

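The members and all gene lists were chosen with earlier results of these data known, those of both experiments included, although the rule for the members used ISRIB values alone. The authors deposited raw read counts per gene, 1 table per kit. The submitters' processing notes name bcl2fastq 2.19.1, FastQC, Trimmomatic 0.36, STAR 2.6.0, HTSeq 0.11.2 and mm10; no strand setting is given there. Symbols and positions came from GENCODE M21 (GRCm38), which named 42546 of 43430 rows, and promoters from RefSeq (GRCm38.p6).

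Each experiment was fitted by itself with edgeR 4.0.16 in R 4.3.3 (filterByExpr with minimum count 10 and minimum total count 15, TMM factors, quasi-likelihood F test, two-sided, group as the only term). CPM use effective library sizes, and CPM per kb the summed exon length. The SE is the absolute log2 coefficient of the fit before shrinkage, divided by the root of F. The printed log2 fold change is edgeR's value after shrinkage by its prior count. On simulated data, the bleomycin design recovered 23.7% of genes changed by 0.6 and 63.2% of those changed by 1 on the log2 scale, so that a member that missed the threshold may still differ. Family shares used exact permutation, and pairs 100000 permutations within groups. Named genes were all 10 members, 4 relatives, up to 3 called genes in each direction of each pathway list with at least 5 CPM, and the 3 most alike genes of Egr1, Gadd45g and Nr4a3 (at least 5 CPM, or 1 CPM for Nr4a3). The sum of macrophage markers without Lyz2 was chosen after its values were seen. The alternatives were other size factors, no filter, DESeq2, limma-voom, a replicate block, leaving out ribosomal-RNA-like and mitochondrial rows, and leaving out each library in turn.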

Additional observations from a re-analysis of the deposited data

Results flagged for a closer look

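Nr4a2 in bleomycin 4 stood apart from the other bleomycin libraries, at 11.8 CPM against 4.50 CPM in the nearest one. The gap was 0.743 of the group's whole range. This is past the limit of Dixon's test for a group of 5. Nr4a3 in naive 4 (3.58 CPM, nearest 1.496 CPM) did not reach the higher limit for a group of 4. Chance gives such a gap in about 1 in 20 groups.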

How the results depend on the processing

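Over the alternatives run, no log2 fold change of a member turned its sign, in 126 values for ISRIB and 135 for bleomycin. For Egr1, Gadd45g and Nr4a3 the ISRIB values are those of the selection, so nothing is read from their sign. After bleomycin the number of members called was 4, against 2 with limma-voom, and 2 to 5 when each library was left out in turn. Ier3 and Nr4a3 were the calls that some alternatives lost, and Egr1 and Nr4a1 those that some gained. With 1 library left out, 0 family shares passed (0 to 0), in place of 2, in designs too small for the shares of Gadd45a and Gadd45g to pass, so this says nothing of stability. The difference in the share of Nr4a2 was -0.57 percentage points after bleomycin and ranged from -2.01 to 0.81 with 1 library left out, turning its sign without naive 4 (0.81) and without bleomycin 1 (0.063). Genes called after ISRIB numbered 265, against 648 without a filter, 408 with DESeq2 and 86 to 269 with 1 library left out, fewest without vehicle 1 (86), vehicle 2 (102) and ISRIB 4 (159). After bleomycin they numbered 2304, and 1554 to 2584 with 1 library left out. The causes of these differences were not tested.

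Same-numbered libraries did not deviate together (r from -0.11 to 0.08), and 3 of 8 and 1 of 8 correlated best with their own number, so the numbers were not taken as pairs. With the replicate number as a block, 277 genes were called after ISRIB and 2187 after bleomycin, and 3 members in place of 4. Depth limits Egr2, Nr4a2 and Nr4a3 most.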
